A study of Caenorhabditis elegans with 2 samples.

Results

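The fatty acid elongase genes of Caenorhabditis elegans and the enoyl-CoA reductase gene art-1 were described in L4 larvae (the last larval stage) raised with or without a grape seed compound. A gene was taken when a probe set of the array named it alone, which gave 9 genes (elo-1 to elo-7, elo-9 and art-1), each on 1 probe set, of 17118 genes named in this way. One array came from wild-type N2 hermaphrodites exposed from L1 to L4, for 48 hours, to pOPC7, a gallated proanthocyanidin trimer from Vitis vinifera seeds, at 2 µg/mL. The other array came from unexposed N2 hermaphrodites grown to the same stage on plates without the compound. All animals ate Escherichia coli OP50, and RNA was taken from whole larvae, so fewer cells of a type and less RNA per cell cannot be told apart. With 1 array per group no replicate spread exists and no test was possible, and precision is set by having a single array on each side.

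Elongases extend a fatty acid by condensing an acyl-CoA with malonyl-CoA. The product is then reduced, dehydrated and reduced again, and enoyl-CoA reductases such as the one predicted from art-1 carry out the final reduction. In the worm, elongases build the long polyunsaturated fatty acids of membranes and the monomethyl branched-chain fatty acids that enter sphingolipids, and the animal depends on its own synthesis of the branched ones. All values below are RMA signals on the log2 scale, and differences are pOPC7 minus control on the same scale.

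None of the 9 genes differed by 1.5-fold between the arrays. Of all 8059 measured genes (mean signal of at least 6 over both arrays) 0.732% were higher and 0.211% lower by that fold, so 0 of 9 is close to the background share. At the lower mark of 1.2-fold (0.26 on the log2 scale) elo-7 and art-1 were higher, which is 2 of 9 against 11.6% of measured genes, and no member was lower, against 6.06%. In direction, 7 of 9 were above 0 and elo-5 and elo-9 were below it, against 57.8% of measured genes above 0. The members' median difference was 0.17, and that of all measured genes was 0.04 (0.06 over all 17118 genes). The members had differences from -0.03 to 0.37, with an SD of 0.13 over the 9 genes.

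An estimate of error came from genes with several probe sets. Over 1721 such genes the disagreement between a pair of probe sets corresponded to an SD of 0.22 for the difference of a single probe set. This SD covers probe sets and not animals. It was taken around the mean gap of the pairs, with the lower probe set number first. A shift common to the pairs, such as one between probe set numbers (described below), is therefore largely left out of this SD. It was larger than the SD among the members. The differences of elo-7, art-1 and elo-4 exceeded 1 such SD, and 0 members exceeded 2. As each member rested on 1 probe set, none of these values was checked by a second one.

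**Figure D1:**
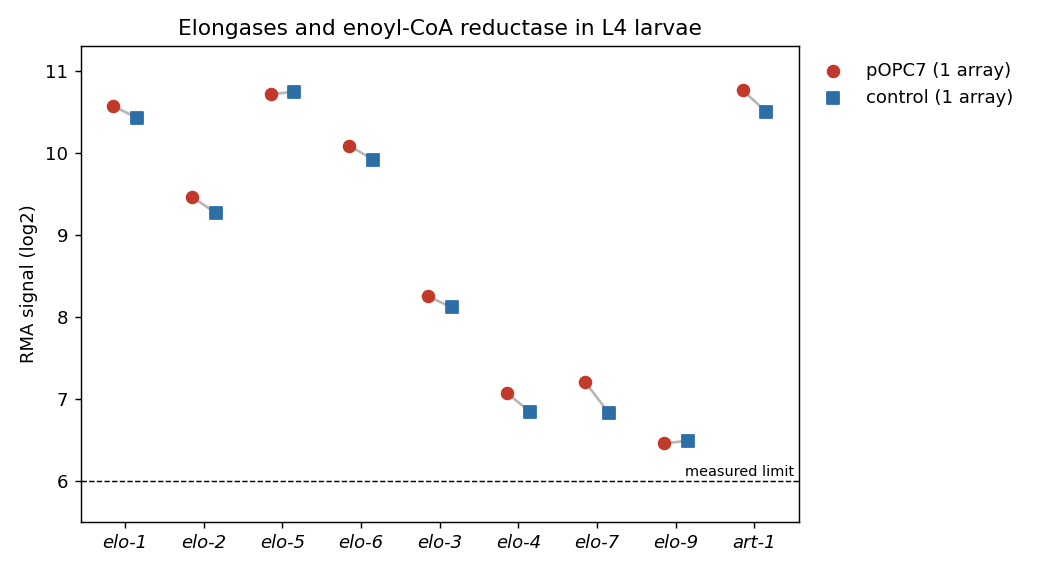
RMA signal (log2) of each member on the pOPC7 array (circles, left of each pair) and on the control array (squares, right), 1 array each. All 9 genes lie above the measured limit of 6, and the circle is higher than the square except in elo-5 and elo-9.

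The signals spanned 6.45 to 10.76 on the pOPC7 array and 6.49 to 10.74 on the control array. All 9 genes were therefore measured on both arrays. In 3 genes, elo-1, elo-5 and art-1, the signal was at 10 or more on both arrays, and in 3 others, elo-4, elo-7 and elo-9, it was under 8 on both. Probe sets differ in how brightly they report a transcript, so these signals do not order the transcripts by abundance.

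The elongases of straight-chain and polyunsaturated fatty acids were both slightly higher on the exposed array. The gene elo-1 encodes the elongase that lengthens C18 polyunsaturated precursors on the way to arachidonic and eicosapentaenoic acid. It had a signal of 10.57 with pOPC7 and 10.42 in the control, a difference of 0.14. The gene elo-2, whose product elongates palmitate and also acts on polyunsaturated chains, had 9.46 with pOPC7 and 9.27 in the control, a difference of 0.19. Both differences were smaller than the SD of a single probe set, and they lay 0.05 apart.

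The genes of the branched-chain elongases did not share a direction. ELO-5 is required for the iso-branched C15 and C17 acids, and its loss arrests larval growth unless these acids are supplied, while ELO-6 contributes to the C17 acid. The signal of elo-5 was 10.71 with pOPC7 and 10.74 in the control (difference -0.03). That of elo-6 was 10.09 with pOPC7 and 9.91 in the control (difference 0.17). The genes lie close together, with 3 protein-coding genes between them in the RefSeq gene order (WBcel235), and the difference of elo-6 exceeded that of elo-5 by 0.20. Their probe sets belong to different number classes (described below), and relative to the class medians the gap was 0.32. A gap between probe sets carries the error of both, so the SD of a single probe set is too small a scale for it. Both probe sets carry a suffix (_s_at) that marks possible matches to several transcripts.

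The remaining elongases, to which no enzymatic role is assigned here, held both the highest and the lowest difference of the 9 genes. The gene elo-7 had 7.20 with pOPC7 and 6.82 in the control, a difference of 0.37, and 95.5% of measured genes had a lower difference. It lies directly beside elo-1 with no protein-coding gene between them, and its difference exceeded that of its neighbour by 0.23. The gene elo-4 had 7.07 with pOPC7 and 6.84 in the control, a difference of 0.23 that did not reach 1.2-fold. The signal of elo-3 was 8.25 with pOPC7 and 8.11 in the control (difference 0.13). The signal of elo-9, the lowest of the 9, was 6.45 with pOPC7 and 6.49 in the control (difference -0.03).

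The gene art-1, whose product resembles the yeast enoyl-CoA reductase of the elongation cycle, had the second largest difference. Its signal was 10.76 with pOPC7 and 10.50 in the control, a difference of 0.27, just past the lower mark. After all differences were centred on the median of the measured genes it was 0.23 and no longer past that mark, which then left 1 member, elo-7, past it, against 8.46% of measured genes. Its probe set is also of the _s_at kind.

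**Figure D2:**
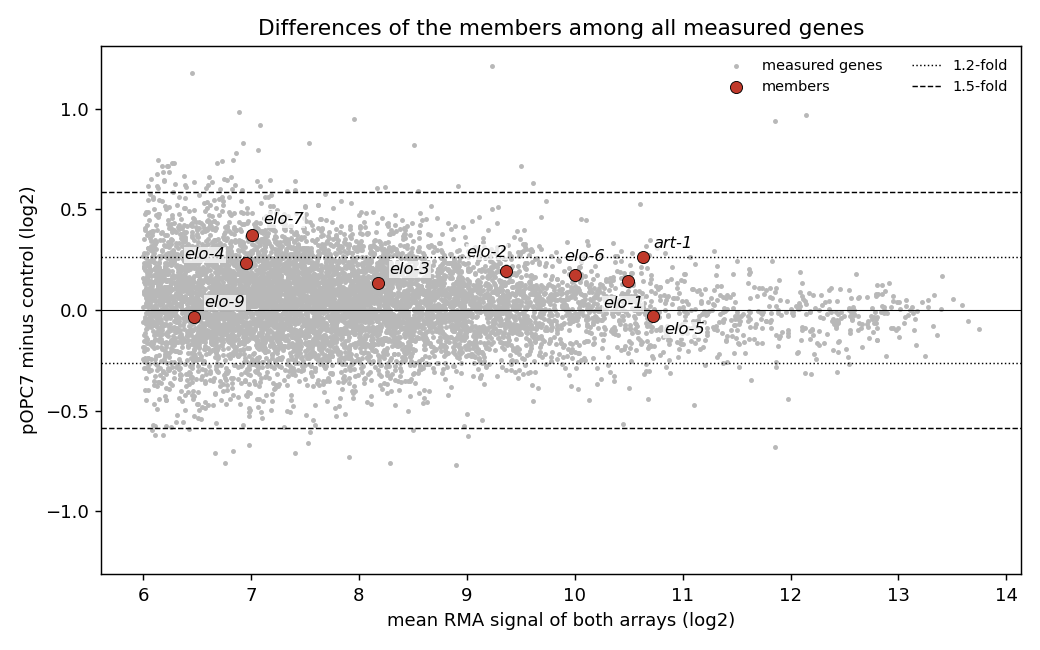
Difference, pOPC7 minus control (log2), against the mean RMA signal of both arrays (log2) for 8059 measured genes (grey) and the 9 members (red). Dotted and dashed lines mark 1.2-fold and 1.5-fold. The cloud narrows at high signals, where art-1 sits near its upper edge, while elo-7 sits inside a wider part of the cloud.

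The spread of all genes depended on the signal, so each member was also set against the measured genes within 0.5 log2 units of its own mean signal, a description added after the values were seen. Near art-1 there were 360 such genes, with a median difference of -0.00 and an SD of 0.15, and 8.06% of them lay at least as far from that median as art-1 did. Near elo-7 there were 2502 genes, with a median of 0.06 and an SD of 0.21, and 13.5% lay at least as far. For elo-6, elo-2 and elo-1 the share was 27.6%, 28.5% and 32.4%. It was 39.0% for elo-4, 58.3% for elo-3, 65.8% for elo-9 and 82.4% for elo-5. Thus art-1 stood further out among genes of like signal than elo-7 did, although its difference was smaller. In these neighbourhoods 7 members lay above the local median and elo-5 and elo-9 below it.

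One property of the arrays moved with the differences. Probe sets numbered below 176000 had a median difference of -0.06 (2474 measured probe sets), and the others had one of 0.06 (7971 measured probe sets), with the dividing number chosen from the data as the one that best separated the differences. The probe sets of elo-6 and art-1 belong to the low-numbered class and the other 7 to the high-numbered class. Relative to the median of its own class art-1 differed by 0.32, elo-7 by 0.31, elo-6 by 0.23 and elo-4 by 0.17. On that scale art-1 and elo-7 were past 1.2-fold, against 7.85% of measured genes, and the differences of elo-1 (0.08) and elo-3 (0.07) were smaller than as deposited.

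**Figure D3:**
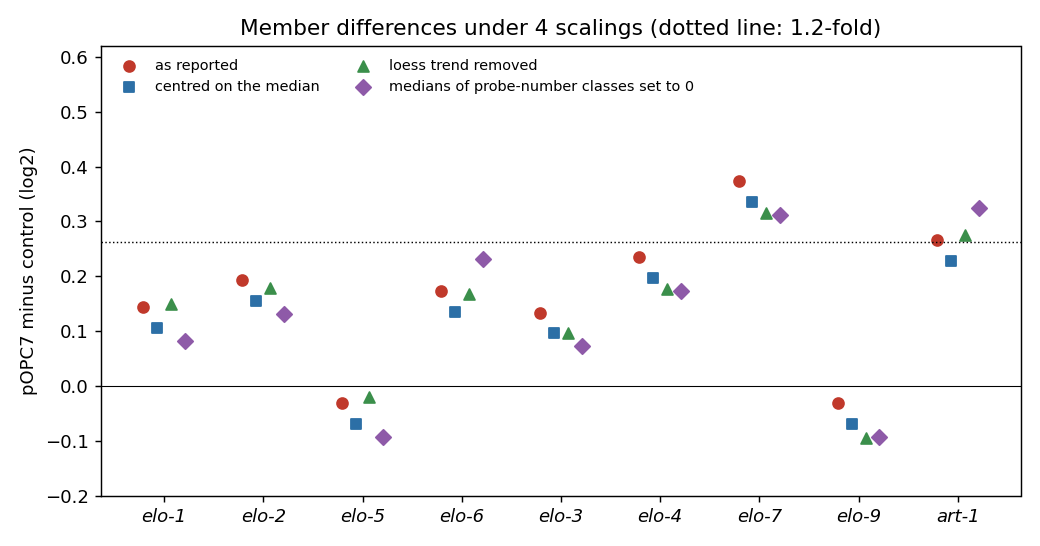
Difference, pOPC7 minus control (log2), of each member as deposited (circles), centred on the median of measured genes (squares), with a loess trend on signal removed (triangles) and with the medians of both probe-number classes set to 0 (diamonds). In all 4 scalings elo-7 lies above the dotted 1.2-fold line and elo-5 and elo-9 lie below 0, while art-1 falls under the line only after centring.

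The other steps of the elongation cycle were read from let-767 and hpo-8. The elongase gene elo-8 had no probe set that named it alone and is not analysed here. The gene let-767 encodes a 3-ketoacyl-CoA reductase that is needed for long-chain fatty acid production, and its signal was 11.06 with pOPC7 and 10.91 in the control (difference 0.15). The gene hpo-8, a homologue of the 3-hydroxyacyl-CoA dehydratases, had 9.31 with pOPC7 and 9.22 in the control (difference 0.09). Both were higher with pOPC7 by less than 1.2-fold and by less than the SD of a single probe set.

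Genes that make the substrates of elongation showed differences under 1.2-fold. All 6 genes of precursor synthesis lay above the measured limit, 0 passed 1.2-fold in either direction, and their median difference was 0.08. The acetyl-CoA carboxylase gene pod-2, whose product makes malonyl-CoA, differed by 0.12, and the ATP-citrate lyase genes acly-2 and acly-1 by 0.19 and -0.19. The probe sets of acly-1 gave -0.36 and -0.01. The glucose-6-phosphate dehydrogenase gene gspd-1, whose product yields NADPH, differed by 0.18. The fatty acid synthase gene fasn-1 differed by -0.02, with probe sets at -0.09 and 0.06. The 6 genes that supply branched-chain primers had a median of -0.00, and 0 passed 1.2-fold. Among them the branched-chain ketoacid dehydrogenase genes bckd-1A (-0.24) and bckd-1B (-0.15) were lower, dld-1 (0.10) was higher, and bcat-1, an aminotransferase gene, differed by 0.04. The probe sets of bckd-1A gave -0.41 and -0.07, and those of bcat-1 had opposite signs (-0.11 and 0.19). The acyl-CoA synthetase gene acs-1, which acts with ELO-5 in branched-chain fatty acid metabolism, differed by -0.03, with probe sets at -0.05 and -0.01.

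Desaturases alternate with elongases in making polyunsaturated fatty acids, and their differences went both ways. Of 7 genes 6 passed the measured limit, and their median, which includes fat-7, was 0.12. The gene fat-7 was higher (0.59), just past 1.5-fold, against 0.732% of measured genes, and fat-1 was lower (-0.30) by 1.2-fold or more. The signal of fat-7 was 6.57 with pOPC7 and 5.98 in the control, so it passed the measured limit only through the exposed array. The genes fat-6 (0.19) and fat-3 (0.15) were closer to elo-2 and elo-1, and the delta-12 desaturase gene fat-2 had an equal signal of 10.55 on both arrays.

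**Figure D4:**
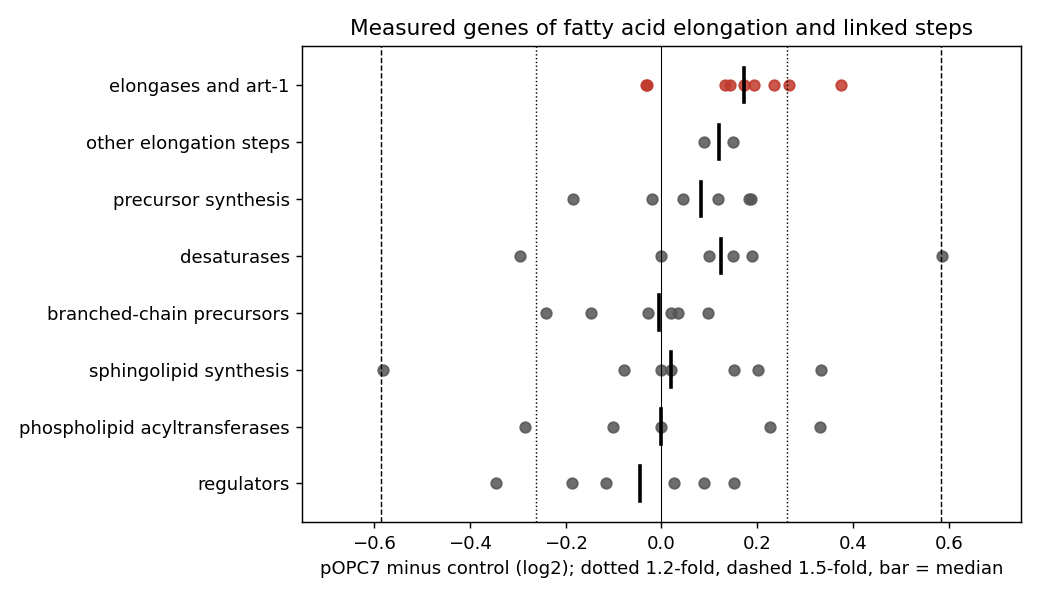
Differences, pOPC7 minus control (log2), of the 9 members (red) and of the measured genes of 7 linked lists (grey points), with the median of each as a black bar. The members lie from -0.03 to 0.37 with a median of 0.17, and the medians of the 7 other lists lie from -0.04 to 0.12. The shift between probe set numbers was not removed here, and members and lists can differ in their share of low-numbered probe sets.

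Lists that use the products of elongation had medians near 0. Of 11 sphingolipid synthesis genes 7 passed the measured limit, and their median was 0.02. The serine palmitoyltransferase gene sptl-2 was higher (0.33) and the ceramide glucosyltransferase gene cgt-1 lower (-0.58) by 1.2-fold or more. Of all measured genes 11.6% were higher and 6.06% lower by that fold. The differences of ttm-5 (0.20) and sptl-1 (0.15) were smaller. The signal of cgt-1 was 5.96 with pOPC7 and 6.55 in the control, so it passed the measured limit only through the control array. That of its homologue cgt-2, below the limit on average, was 6.06 with pOPC7 and 5.49 in the control (difference 0.57). Of 6 phospholipid acyltransferase genes 5 passed the measured limit, and their median was 0.00. Among them mboa-3 was higher (0.33) and mboa-7 lower (-0.29) by 1.2-fold or more, followed by acl-8 (0.23) and mboa-6 (-0.10). Of 9 regulators of fat genes 6 did, and their median was -0.04. The nuclear receptor gene nhr-66 was lower (-0.35), with probe sets at -0.55 and -0.14, and was the 1 measured regulator past 1.2-fold. The regulators below the limit on average, paqr-2 (0.37), scp-1 (0.28) and nhr-13 (0.27), were all higher by 1.2-fold or more. The median of -0.04 leaves them out and so depends on the limit. The differences of nhr-49, which activates fatty acid desaturation and oxidation genes, of nhr-80, which regulates desaturase genes, and of iglr-2, whose product partners the membrane fluidity sensor PAQR-2, were -0.19, 0.15 and -0.12. The probe sets of nhr-49 gave -0.33 and -0.04, and those of iglr-2 had opposite signs (0.08 and -0.32).

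Several of the elongases act in the intestine, and markers of tissues were read on the same arrays. Of 8 intestinal markers 7 were measured, with a median difference of 0.01 and signals from 7.25 to 12.36 with pOPC7 and from 7.15 to 12.35 in the control. Of the 7, 5 were above 0 and 2 below. The largest differences were those of elt-7 (0.33), the 1 past 1.2-fold, pho-1 (0.17) and pept-1 (-0.08). The probe sets of pho-1 gave -0.01 and 0.35. The summed signal of the 7 was 13.30 with pOPC7 and 13.29 in the control (log2). The brightest marker, asp-1 (12.36 with pOPC7 and 12.35 in the control), weighs most in that sum. The intestinal regulator gene elt-2 averaged below the measured limit on both arrays, at 5.52 with pOPC7 and 5.55 in the control. Its probe sets had opposite signs. The brighter gave 6.62 with pOPC7 and 6.29 in the control (difference 0.34), above the limit on both arrays. The dimmer gave 4.41 with pOPC7 and 4.81 in the control (difference -0.40). Epidermal markers had a median of 0.17 over 6 genes. Of these 5 were above 0, with nhr-23 (0.50) and rol-6 (0.45) past 1.2-fold, and sqt-3 (-0.14) was below 0. Of all measured genes 57.8% were above 0 and 11.6% were higher by 1.2-fold or more. Their summed signal was 13.74 on both arrays, but the brightest marker, dpy-13 (13.01 on both), dominates that sum. Median differences were -0.02 for muscle (5 genes), -0.13 for germline (5), -0.30 for sperm (3 measured of 5) and 0.22 for neurons (3 of 5). Their summed signals differed less. The sum for muscle was 13.40 with pOPC7 and 13.42 in the control, that for germline 11.87 with pOPC7 and 11.93 in the control, and that for sperm 9.73 with pOPC7 and 9.79 in the control. For neurons the sum was lower with pOPC7 (9.92) than in the control (9.99), against the sign of the median, as the brightest neuronal marker, snb-1, differed by -0.16. The sperm gene fer-1 passed the measured limit only through the control array, with 5.98 with pOPC7 and 6.34 in the control. The sperm median depends on it, as the other measured sperm markers were spe-4 (-0.30) and spe-11 (0.09). The sperm gene spe-9, below the limit on average, differed by 0.37. The collagen gene col-19, known for its adult epidermal expression, had signals of 10.81 with pOPC7 and 10.89 in the control, above the measured limit in larvae labelled L4. The part of these markers in the members' differences was not tested.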

How the data were processed

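RNA of whole L4 larvae was measured on 2 arrays, 1 for pOPC7 and 1 for the control. The authors deposited log2 values made with RMA, per the submitters' processing notes. The log2 scale was read from the range of the deposited values (1.78 to 13.90), and no source used here gives the software, its version or the genome build. The array medians were 5.99 with pOPC7 and 5.94 in the control. Of 22625 probe sets, 20766 named 1 gene symbol, 887 several and 972 none in the platform annotation. The Entrez identifiers of all 9 members matched RefSeq genes (WBcel235), which served for names and neighbours. No sequences are shown.

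Probe sets naming the same single gene were averaged, and a gene counted as measured when its mean signal on the pair of arrays reached 6. Fold marks were 1.5 and 1.2. The text names all members, both genes of the other elongation steps and up to 4 measured genes per linked list by absolute difference. The genes fasn-1, acs-1, cgt-2, fat-2, paqr-2, scp-1 and nhr-13, and all tissue markers named, were added after their values were seen. Members and lists were chosen with earlier results of these data known. Alternatives were limits of 5, 7 or none, centring, loess (span 0.3), probe sets without multi-transcript suffixes, the brightest probe set and, added after seeing the data, class medians by probe set number. The code was tested on simulated data. Python 3.11.15, pandas 2.3.3, numpy 2.4.6, statsmodels 0.14.6 and matplotlib 3.10.9 were used.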

Additional observations from a re-analysis of the deposited data

How the results depend on the processing

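Each member has 1 probe set, so only 3 of the 8 other settings that give member values could move them: centring, removal of the loess trend and the class medians of probe set numbers. The 27 member values under these 3 kept their sign, and the largest move was 0.06. Limits on level, the suffix filter and the brightest probe set only decide which members enter, and they returned the reported values by construction. The members' median ranged from 0.13 to 0.17, their mean being 0.16, and the count past 1.5-fold was 0 in all 8 settings. The count past 1.2-fold was 1 in place of 2 after centring and also without probe sets ending in _s_at, _x_at or _a_at, which leaves out art-1, elo-5 and elo-6. With a limit of 7, elo-4 and elo-9 were not measured, and 6 of the 7 others were above 0. No paired analysis was possible because each group holds 1 array, and leaving out a replicate was not possible for the same reason. The SD of 0.22 for a single probe set is pooled over signals, and with a limit of 7 it was 0.20. It gives a scale for the error and no bound above which a difference is established.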
